A study of Mus musculus with 8 samples.

Results

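The genes described here are 10 stress-response factors: Atf4, the C/EBP-related factor Ddit3 (CHOP), the pseudokinase gene Trib3, the basic-leucine zipper (bZIP) factors Atf3, Atf5, Atf2, Cebpb, Cebpg and Nfe2l2 (NRF2), and the small chromatin protein gene Nupr1. They were chosen by symbol from the deposited table, in which all 10 of the 10 symbols were found among 41730 genes and other features. All 10 passed the filter on low counts, together with 12162 genes in all. The samples were mouse OT-I CD8+ T cells, which carry a transgenic receptor for SIINFEKL, a peptide of ovalbumin. The T cells had shared a dish with peptide-pulsed dendritic cells derived from bone marrow and were then sorted. In 4 samples (replicates 5 to 8) the shared culture contained 2 µM RGX-104, which activates liver X receptors (LXR), and in 4 (replicates 1 to 4) the solvent DMSO. Every sample was of OT-I genotype. The agonist reached the dendritic cells as well as the T cells, and the comparison asks how the RNA of the sorted T cells differed. The labels do not say whether the samples came from separate cultures or mice, so the spread between them may be technical.

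ATF4 stands at the centre of the integrated stress response. When stress kinases phosphorylate the initiation factor eIF2alpha, most translation slows while the Atf4 message is translated more. ATF4 then pairs with C/EBP-family proteins on composite C/EBP-ATF elements of its target genes, which include amino acid enzymes and transporters, and also Ddit3, Trib3 and Atf3. In T cells this programme supports amino acid supply after activation. The libraries measure RNA, so ATF4 protein and eIF2alpha phosphorylation were not measured.

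Of the 10 factors 6 fell and 0 rose in the RGX-104 samples at an adjusted p under 0.05 (edgeR quasi-likelihood test, Benjamini-Hochberg over 12162 genes), where 1.78% of all genes tested were lower and 0.888% higher. At an unadjusted p under 0.05, 7 were lower and 0 higher, where 1679 of the 12162 genes tested passed in either direction. DESeq2 and limma-voom each called 6 lower and 0 higher, and their shares of all genes lower are not given here. Trib3, Ddit3, Atf5, Atf3, Atf4 and Cebpg fell, and Nupr1, Cebpb, Nfe2l2 and Atf2 were not called. The same 6 factors had libraries that did not overlap between the groups, each RGX-104 library below each DMSO library, which held for 4.32% of all genes tested. The median log2 fold change of the 10 was -0.71, against 0.00 over all genes tested. A lower value in RNA from a whole sample does not tell fewer cells of a kind from less RNA per cell. Levels are given as CPM, read counts scaled by library total and TMM factor and not divided by gene length (the reads mark 3′ ends), and fold changes as log2 of RGX-104 over DMSO.

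Total counts ranged from 13144704 to 14947537 in the RGX-104 libraries and from 14867824 to 15966972 in the DMSO libraries. Abca1, the LXR-driven cholesterol exporter, averaged 85.2 CPM in RGX-104 and 8.13 CPM in DMSO libraries. The 9 CD8 T cell markers in the table summed to 2138 to 2231 CPM in RGX-104 and to 1780 to 1853 CPM in DMSO libraries (here scaled by the raw totals), ranges that did not overlap, and 4 of the 9 were called. The 20 markers of dendritic cells and macrophages summed to 614 to 728 CPM in RGX-104 and 637 to 697 CPM in DMSO libraries. Of their 14 tested members edgeR called 0, with 3 lower at an unadjusted p under 0.05, and DESeq2 called 1 lower and limma-voom 0. H2-Aa, H2-Ab1 and H2-Eb1 were listed at 0 in all 8 libraries, as were genes that all dividing cells use, such as Kif11, so a 0 is not read as absence. The 4 NK cell markers summed to 5.48 to 9.21 CPM in RGX-104 and 1.33 to 4.67 CPM in DMSO libraries, and their 1 tested member was higher at an unadjusted p under 0.05 but was called by none of the 3 tools. B cell, CD4 T cell and erythroid markers overlapped between the groups. The part of such marker differences in the results below was not tested.

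Atf4 encodes the factor that drives the amino acid branch of the response. It stood at 467, 436, 464 and 497 CPM in RGX-104 replicates 5 to 8, against 793, 666, 725 and 684 CPM in DMSO replicates 1 to 4. The lowest DMSO library lay well above the highest RGX-104 library. Atf4 (chromosome 15, 80255184 to 80257545; all gene coordinates are of GRCm38.p6) was 1.54-fold lower in RGX-104 (95% interval 1.42 to 1.67; log2 fold change -0.62 ± 0.06 SE, adjusted p = 1.50e-07). At 717 CPM in DMSO it was at percentile 98.5 of the genes tested, and 26378 and 44028 reads stood behind its RGX-104 and DMSO values.

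Ddit3 encodes CHOP, a C/EBP-family protein that dimerises with ATF4 and C/EBP factors and is known for its link to stress-induced death. It stood at 15.1, 13.6, 19.0 and 18.9 CPM in the RGX-104 libraries, against 68.2, 66.3, 65.9 and 60.6 CPM in the DMSO libraries. Even the highest RGX-104 value was under the lowest DMSO value by a wide margin. Ddit3 (chromosome 10, 127290793 to 127296291) was 3.92-fold lower (95% interval 3.32 to 4.63; adjusted p = 1.15e-10). It ranked 5 among all genes tested by p. Its exons overlap those of the methionyl-tRNA synthetase gene Mars1 on the opposite strand over 68 bp in GENCODE M21. Mars1 had 2526 to 3049 reads per library and a log2 fold change of 0.06. The strand setting of the counting is not given, and whether Mars1 reads entered the Ddit3 counts was not tested.

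Trib3 encodes a pseudokinase that is induced by ATF4 and CHOP and that binds ATF4 and restrains it, a negative feedback. Its values were 7.30, 7.23, 8.97 and 6.40 CPM in the RGX-104 libraries, against 53.3, 61.0, 50.2 and 49.5 CPM in the DMSO libraries. Trib3 (chromosome 2, 152337425 to 152344060) was 7.14-fold lower (95% interval 5.89 to 8.64; adjusted p = 3.18e-12). It ranked 2 by p and had the fifth lowest fold change of all genes tested. The 4 RGX-104 libraries held 426 Trib3 reads together and the 4 DMSO libraries 3278. The coefficient of variation between libraries was 14.4% in RGX-104 and 9.87% in DMSO, where counting alone gives 9.69% and 3.49%.

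**Figure D1:**
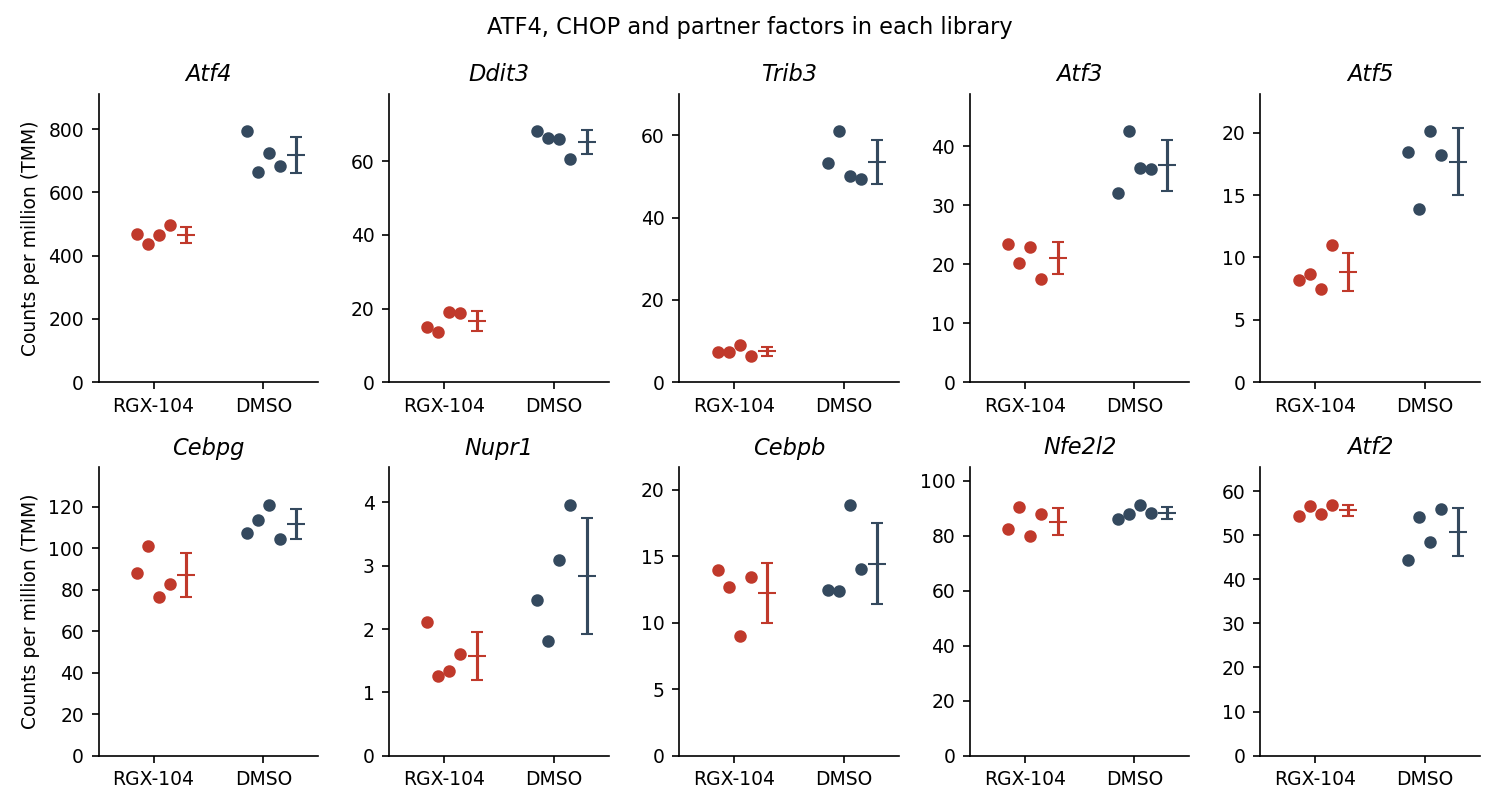
Level of each of the 10 factors in every library, in TMM-scaled CPM on a linear axis from 0; points are libraries (RGX-104 red, DMSO dark blue, 4 each) and the bars beside them mean ± SD. In the first 6 panels (Atf4, Ddit3, Trib3, Atf3, Atf5, Cebpg) each RGX-104 point lies below each DMSO point, and in the last 4 the groups overlap.

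Atf3 and Atf5 are bZIP factors that act in the same response. Atf3 is a transcriptional repressor and early stress gene induced by ATF4. It stood at 23.4, 20.2, 22.9 and 17.5 CPM in RGX-104, against 32.0, 42.5, 36.3 and 36.1 CPM in DMSO libraries. The groups did not overlap, and the log2 fold change was -0.81 ± 0.13 (adjusted p = 0.000448; chromosome 1, 191170296 to 191183333). Atf5, whose message is also translated under eIF2alpha phosphorylation and which is linked to the mitochondrial stress response, stood at 8.21, 8.69, 7.43 and 11.0 CPM in RGX-104, against 18.5, 13.8, 20.1 and 18.2 CPM in DMSO libraries. Its groups were separate too, with DMSO replicate 2 closest to the RGX-104 range. Atf5 (chromosome 7, 44812256 to 44816658) was lower in RGX-104 by a factor with a 95% interval of 1.56 to 2.58 (adjusted p = 0.00135). Its exons overlap those of Nup62 on the opposite strand over 82 bp, and the strand setting of the counting is not given in the sources used here. Nup62 had 2793 to 3558 reads per library, while Atf5 had 497 in all RGX-104 and 1087 in all DMSO libraries together. Whether Nup62 reads entered the Atf5 counts was not tested.

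C/EBPγ (Cebpg) lacks an activation domain of its own and forms heterodimers with ATF4. Cebpg stood at 88.0, 101, 76.3 and 82.8 CPM in RGX-104, against 107, 114, 121 and 104 CPM in DMSO libraries. RGX-104 replicate 6 came close to the DMSO range without entering it. The log2 fold change was -0.36 ± 0.08 (adjusted p = 0.0158; chromosome 7, 35046422 to 35056566), and this is the call among the 6 that rested on single libraries. Cebpg had an adjusted p of 0.0876 without DMSO replicate 3, 0.0755 without RGX-104 replicate 7 and 0.0711 without RGX-104 replicate 8.

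C/EBPβ (Cebpb) is a stress- and cytokine-induced factor of myeloid cells, liver and other tissues. Cebpb stood at 14.0, 12.7, 8.97 and 13.4 CPM in RGX-104, against 12.5, 12.4, 18.9 and 14.0 CPM in DMSO libraries. The ranges overlapped, and the log2 fold change of -0.24 had a 95% interval of -0.62 to 0.14 (adjusted p = 0.619; chromosome 2, 167688915 to 167690432). Exons of Cebpb overlap those of Tmem189 on the opposite strand over 312 bp, and Tmem189 had 158 to 263 reads per library. Whether Tmem189 reads entered the Cebpb counts was not tested.

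Nupr1, a stress-induced nuclear protein, had the fewest reads of the 10. Its values were 2.10, 1.25, 1.34 and 1.60 CPM in RGX-104, against 2.45, 1.81, 3.09 and 3.96 CPM in DMSO libraries, so RGX-104 replicate 5 lay within the DMSO range. Only 89 reads in the RGX-104 and 174 in the DMSO libraries stood behind these values. The log2 fold change of -0.84 had a 95% interval of -1.66 to -0.03 and an unadjusted p of 0.0428 by edgeR, which did not hold after adjustment over all genes (adjusted p = 0.340; chromosome 7, 126623246 to 126625470). Changes as large as those of Atf3 and Atf5 lay within that interval.

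Nfe2l2 and Atf2 were measured with more reads and lay close together in the groups. NRF2, the product of Nfe2l2, drives antioxidant genes once released from KEAP1 and shares some targets with ATF4. Nfe2l2 stood at 82.4, 90.6, 79.9 and 87.9 CPM in RGX-104, against 86.2, 88.0, 91.4 and 88.2 CPM in DMSO libraries. Its log2 fold change was -0.05 with a 95% interval of -0.20 to 0.09 (adjusted p = 0.803; chromosome 2, 75675513 to 75704663). Atf2, which encodes a factor activated by stress kinases through phosphorylation, stood at 54.4, 56.5, 54.9 and 56.9 CPM in RGX-104, against 44.3, 54.1, 48.5 and 56.0 CPM in DMSO libraries. It was the only one of the 10 with a positive log2 fold change, 0.13 with a 95% interval of -0.06 to 0.32 (adjusted p = 0.555; chromosome 2, 73816509 to 73892677). For both genes the interval left out changes as large as that of Atf4.

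**Figure D2:**
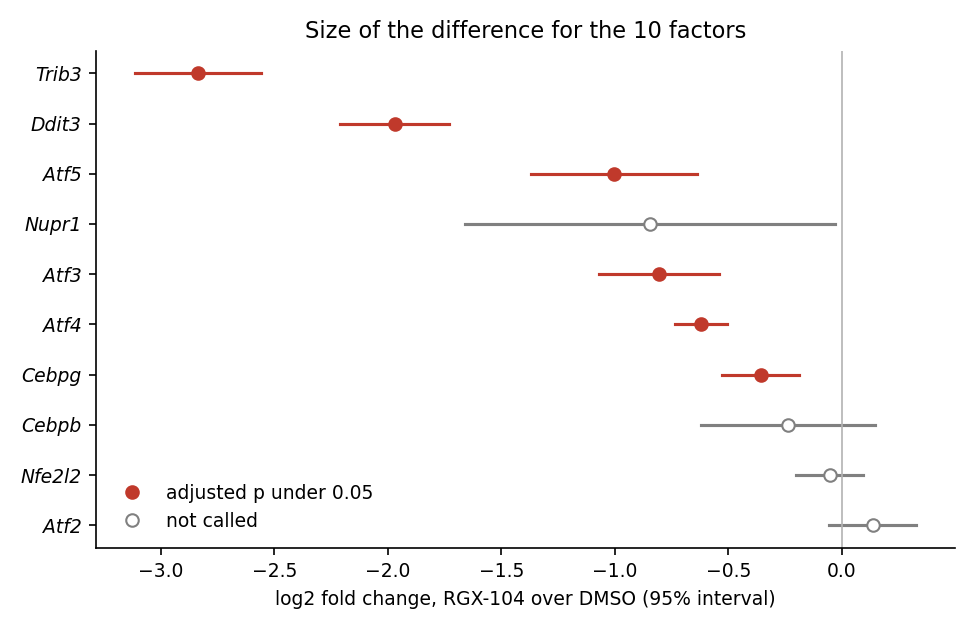
Log2 fold change, RGX-104 over DMSO, with its 95% interval for each of the 10 factors, ordered from the most to the least negative; filled red points passed the adjusted p threshold of 0.05. Trib3 (-2.84) and Ddit3 (-1.97) stand apart from the rest, among which Atf2 is highest (0.13).

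In this order of fold changes, the steps between Trib3 and Ddit3 and between Ddit3 and Atf5 exceeded the spread between libraries. The ratio of Trib3 to Ddit3 within a library, on the log2 scale, ran from -1.56 to -0.91 in RGX-104 and from -0.39 to -0.12 in DMSO libraries. The ratio of Ddit3 to Atf5 ran from 0.65 to 1.36 in RGX-104 and from 1.71 to 2.26 in DMSO libraries. For each of the other 7 neighbouring pairs, from Atf5 and Nupr1 down to Nfe2l2 and Atf2, these ranges overlapped between the groups.

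Set against Atf4 in the same library, a measure in which the scaling between libraries cancels, the factors differed. Trib3 reads per 1000 Atf4 reads numbered 16.1 ± 2.67 in RGX-104 and 75.1 ± 11.3 in DMSO libraries (SD, n = 4 each), and Ddit3 reads 35.6 ± 4.64 in RGX-104 and 91.3 ± 5.91 in DMSO libraries. For these genes the ratio was lower in RGX-104 with no overlap. Atf3 (45.3 ± 6.86 in RGX-104 and 51.8 ± 9.69 in DMSO) and Atf5 (18.9 ± 2.65 in RGX-104 and 24.6 ± 3.18 in DMSO) overlapped between the groups, as did Nupr1, Cebpb and Cebpg. Nfe2l2 numbered 183 ± 16.5 in RGX-104 and 124 ± 10.5 in DMSO libraries. Atf2 numbered 120 ± 6.83 in RGX-104 and 71.5 ± 12.5 in DMSO libraries. Both were higher relative to Atf4 with no overlap, but neither was called by its own level. A gene of unchanged level is higher in this ratio because Atf4 itself fell. No test was run on these ratios.

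**Figure D3:**
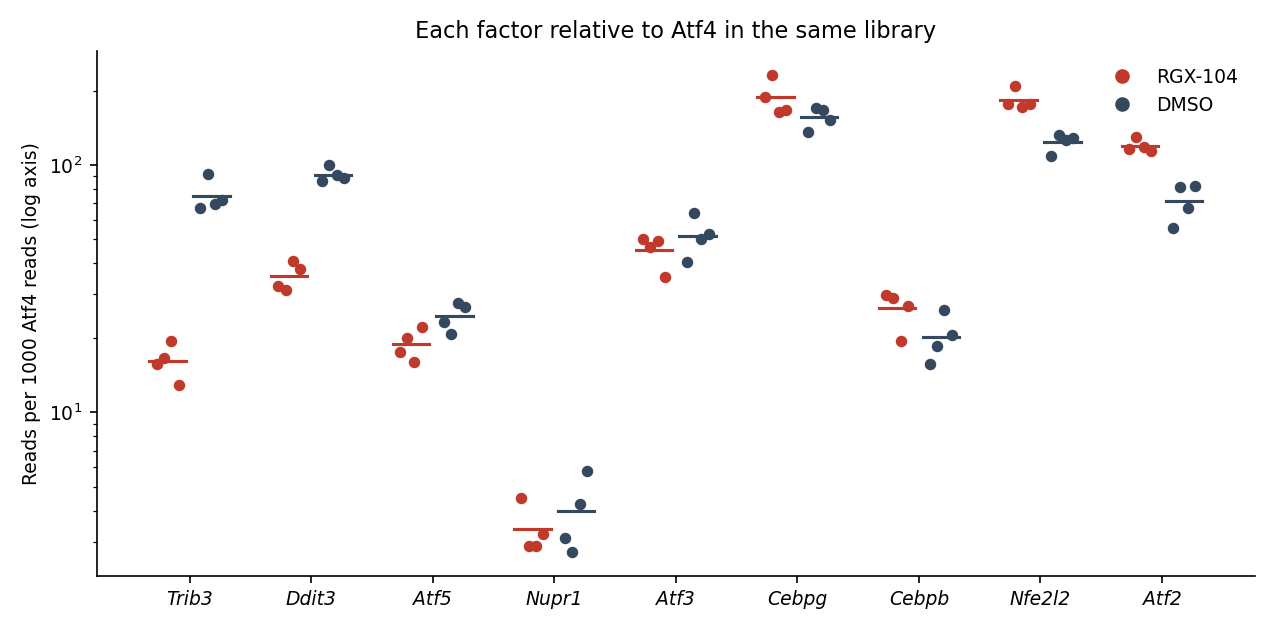
Reads of each factor per 1000 Atf4 reads in the same library, on a log axis; points are libraries (RGX-104 red on the left, DMSO dark blue on the right, 4 each) and lines are group means. Trib3 and Ddit3 are lower relative to Atf4 in RGX-104, Nfe2l2 and Atf2 are higher, and the groups overlap for the other 5. Atf4 itself fell, so a gene of unchanged level is higher in this ratio.

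The composite C/EBP-ATF element, through which ATF4 dimers are known to act, was looked for in RefSeq promoter windows (GRCm38.p6, 250 bases before to 50 after a gene's start; 11 windows for the 10 factors, Atf5 having a pair of starts). The motif TGATGCAA, searched on both strands, was in 0.895% of all 32851 windows of the table and in those of 2 factors, Atf3 and Nupr1. In each it lay on the antisense strand, 110 to 103 bases before the start, so it reads TTGCATCA along the gene. The windows are shown 5′ to 3′ on the gene's strand because these 2 factors carry the element at the same distance, with the element in capitals; they span chr1:191183395-191183484 (minus strand) and chr7:126625532-126625621 (minus strand).
Atf3: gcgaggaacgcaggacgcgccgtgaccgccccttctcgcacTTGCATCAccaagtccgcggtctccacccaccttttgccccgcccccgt
Nupr1: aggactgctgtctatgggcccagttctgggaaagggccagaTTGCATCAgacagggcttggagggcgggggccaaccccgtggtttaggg

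The relaxed form TGATGNAA, which includes TGATGCAA, was in 3.97% of all windows and added Trib3, where it reads TTACATCA from base 15 to base 22 after the start (chr2:152344028-152344057, minus strand).
Trib3: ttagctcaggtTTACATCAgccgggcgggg

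Of the other motifs searched on both strands, the cAMP response element TGACGTCA (1.79% of windows), the C/EBP palindrome TTGCGCAA (0.183%) and the ER stress element (0.119%) were in the windows of none of the 10. The antioxidant element TGACNNNGC (12.4% of windows) was in those of Nfe2l2 and Cebpb. A match here is only a match of letters, and the absence of one says nothing of sites outside the window. Both Atf3, which fell, and Nupr1, which was not called, carry the element, while Ddit3 and Atf4 do not within these windows.

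Many genes listed here as ATF4 targets were lower alongside the factors. The lists were chosen with earlier results of these data known, so their counts are a description and no independent support. Of 55 tested genes in 4 lists pooled (amino acid enzymes, amino acid transporters, aminoacyl-tRNA synthetases, and feedback and signalling targets), 33 fell and 0 rose (0 were higher at an unadjusted p under 0.05, by DESeq2 or by limma-voom), with a median log2 fold change of -0.41 against 0.00 over all genes tested, of which 1.78% were lower and 0.888% higher. Among 15 amino acid enzymes 10 fell. Pck2, the mitochondrial phosphoenolpyruvate carboxykinase, averaged 12.8 ± 2.28 CPM in RGX-104 and 50.9 ± 5.45 CPM in DMSO libraries (SD, n = 4 each). The cysteine-forming enzyme Cth averaged 4.51 ± 1.34 CPM in RGX-104 and 17.5 ± 0.590 CPM in DMSO libraries. The folate enzyme Aldh1l2 averaged 0.982 ± 0.383 CPM in RGX-104 and 8.88 ± 1.22 CPM in DMSO libraries. Gpt2, the mitochondrial alanine transaminase, which was picked after its values were seen, had a log2 fold change of -1.63. The other 5 enzymes were not called.

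Among 11 amino acid transporters 8 fell. Slc6a9, a glycine transporter, had a log2 fold change of -2.30 and Slc7a3, a cationic amino acid transporter, of -1.80, while the abundant glutamine transporter Slc38a2 had -0.41 (331 ± 12.6 CPM in RGX-104 and 440 ± 31.9 CPM in DMSO libraries). Of 18 tested aminoacyl-tRNA synthetases 8 fell and 10 were not called, and the median log2 fold change was -0.08, with 11 of 18 negative. Those with the smallest p were Nars (-0.47), Sars (-0.47) and Cars (-0.56), with standard errors of 0.05 to 0.06. Among 11 tested feedback and signalling targets 7 fell. Eif4ebp1, the translation repressor 4E-BP1, averaged 56.4 ± 3.54 CPM in RGX-104 and 111 ± 8.13 CPM in DMSO libraries. Ddit4, the mTORC1 inhibitor REDD1, had a log2 fold change of -1.04 and the glutathione-degrading enzyme Chac1 of -2.21. Sesn2, another mTORC1 inhibitor and picked after its values were seen, had -1.46.

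Of 8 tested genes linked to CHOP in death and oxidation, 2 fell and 0 rose, with 1 higher at an unadjusted p under 0.05 and 0 by DESeq2 or limma-voom. Bbc3, which encodes the pro-death BH3 protein PUMA, averaged 5.25 ± 1.54 CPM in RGX-104 and 12.3 ± 2.00 CPM in DMSO libraries (adjusted p = 0.00180). The survival gene Bcl2 fell by 0.34 on the log2 scale (adjusted p = 0.00587). Ero1a, the oxidase of the endoplasmic reticulum, had -0.22 and was not called (adjusted p = 0.157).

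Upstream of ATF4, none of 11 tested genes for eIF2alpha, its kinases, their regulators or its phosphatase subunits was called by edgeR, and the median log2 fold change was 0.08. At an unadjusted p under 0.05 only Ppp1r15a was lower, and DESeq2 and limma-voom each called 1. Ppp1r15a is also counted among the feedback and signalling targets above. Ppp1r15a (GADD34), the inducible subunit that ends the response by dephosphorylating eIF2alpha, averaged 31.4 ± 9.59 CPM in RGX-104 and 44.4 ± 1.63 CPM in DMSO libraries (log2 fold change -0.50, adjusted p = 0.0743). It was called by DESeq2 (adjusted p = 0.0304), by limma-voom (0.0411) and by edgeR without RGX-104 replicate 7 (0.000819), where the log2 fold change was -0.73. Eif2s1, eIF2alpha itself, had 0.09 and the kinase gene Eif2ak2 -0.18.

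In the parallel XBP1 and ATF6 arms of the unfolded protein response most genes were not called. Of 18 tested genes 2 rose, 2 fell and 14 were not called, and the median log2 fold change was 0.05. Herpud1, which serves degradation from the endoplasmic reticulum, averaged 57.1 ± 4.70 CPM in RGX-104 and 108 ± 7.59 CPM in DMSO libraries. Sel1l, of the same degradation route and picked after its values were seen, had -0.28, the chaperone Calr 0.19 and Sdf2l1 0.34. The calls of Sdf2l1 and Sel1l were marginal (adjusted p = 0.0393 and 0.0471). Sdf2l1 was not called when DMSO replicate 1, 2 or 3 or RGX-104 replicate 5, 6 or 8 was left out (adjusted p up to 0.136), nor was Sel1l without DMSO replicate 1, 2 or 3 or RGX-104 replicate 5, 7 or 8 (up to 0.174). With no filter on low counts neither was called (adjusted p = 0.0506 for Sdf2l1 and 0.0632 for Sel1l), and Sel1l was not called by limma-voom (0.0525) or with library totals in place of TMM in edgeR (0.0539).

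The target lists of NRF2 and ATF5 held few calls or none. Of 17 tested NRF2 targets edgeR, DESeq2 and limma-voom each called 0, and 1 was lower at an unadjusted p under 0.05, with a median log2 fold change of -0.01. The one with the smallest p was the heme oxygenase gene Hmox1, at 0.986 ± 0.417 CPM in RGX-104 and 2.69 ± 1.46 CPM in DMSO libraries (adjusted p = 0.126), followed by the heme transporter Slc48a1 (-0.14) and the transketolase Tkt (0.08). Of 8 tested mitochondrial stress genes linked to ATF5, the protease Lonp1 fell (log2 fold change -0.28; adjusted p = 0.0165) and the chaperones Hspa9 (-0.09) and Hspd1 (-0.10) were not called. Lonp1 lost its call without DMSO replicate 4 or RGX-104 replicate 5, 6 or 8, with an adjusted p of up to 0.0753.

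Among 34 tested genes listed here as other bZIP factors 3 fell and 0 rose, and the median log2 fold change was -0.02. Of these, 1 was higher at an unadjusted p under 0.05, and 0 by DESeq2 or limma-voom. The list includes Cebpz, which is not a bZIP protein, and shares Xbp1, Atf6 and Jdp2 with lists counted above. Nfil3, a bZIP repressor, averaged 27.1 ± 3.04 CPM in RGX-104 and 41.5 ± 6.01 CPM in DMSO libraries. The AP-1 subunit Jun had -0.35 and Nfe2l1, the NRF2 relative that controls proteasome genes, -0.33. Nfe2l1 was not called when DMSO replicate 1 or 3 or RGX-104 replicate 6, 7 or 8 was left out (adjusted p up to 0.0985). Of 8 tested Tribbles relatives and cofactors, Trib2 fell (log2 fold change -0.48, adjusted p = 0.0160; up to 0.0665 without DMSO replicate 2 or 3 or RGX-104 replicate 5 or 6). Trib1 had 0.24 and Stk40 -0.23, and neither was called. Of 9 tested LXR targets all 9 rose, with Abca1 (3.39), Abcg1 (2.41) and the desaturase Scd2 (0.87) leading by p.

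**Figure D4:**
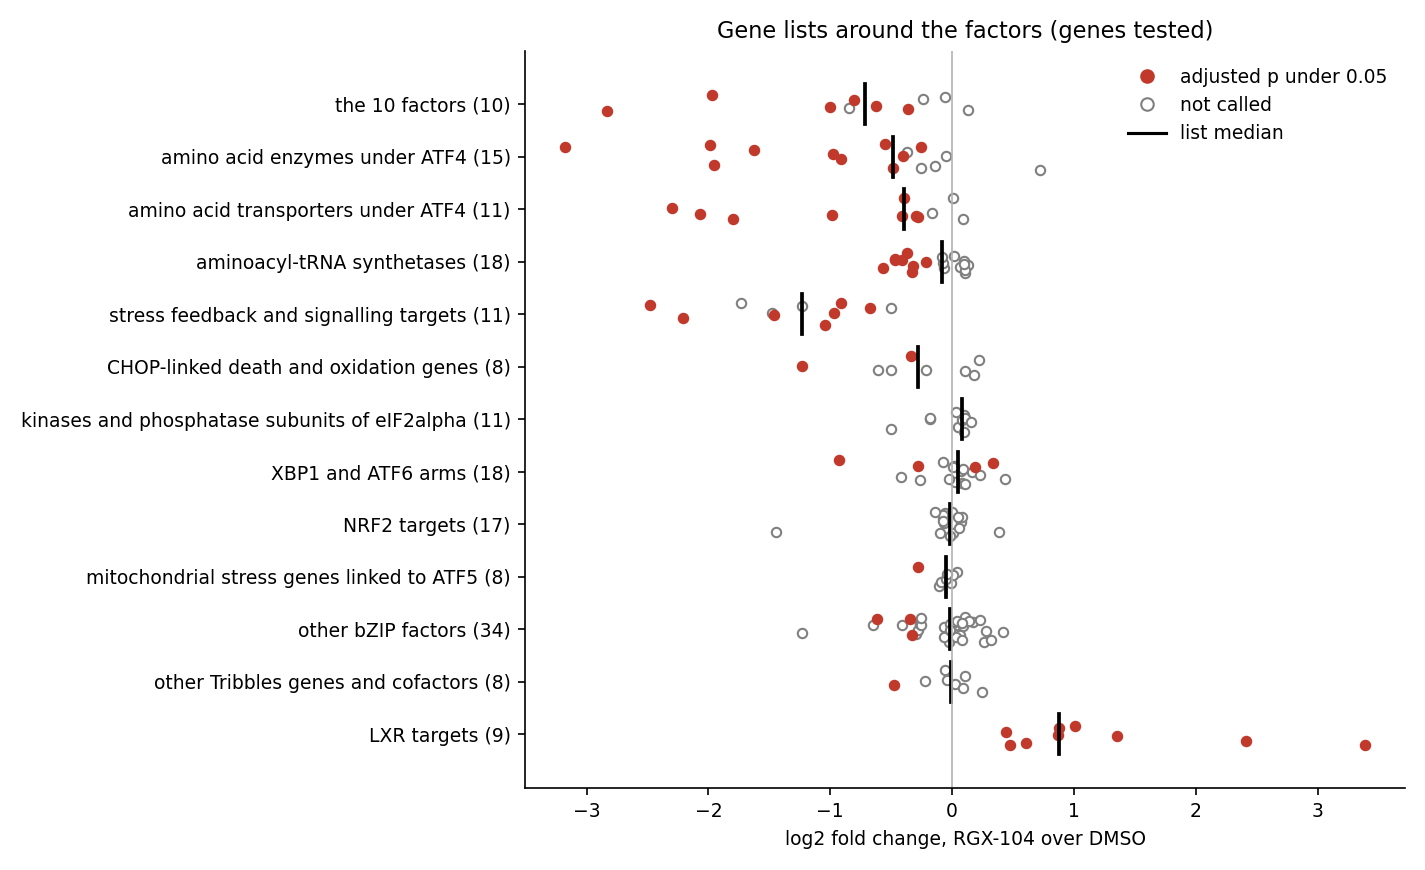
Log2 fold change, RGX-104 over DMSO, of each tested gene (points, filled red where the adjusted p was under 0.05) in the 10 factors and 12 gene lists, with the list median as a black bar and the number tested in brackets. The medians are -0.49 for amino acid enzymes, -0.39 for transporters, -1.23 for feedback targets and -0.08 for aminoacyl-tRNA synthetases, against 0.08 for eIF2alpha regulators, -0.01 for NRF2 targets and -0.02 for other bZIP factors.

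The genes whose profile over the 8 libraries lay nearest to a factor were found by the mean absolute difference of log2(CPM + 0.5) from the DMSO mean. Nearest to Ddit3 were Pck2 (0.18), Slc7a3 (0.20), Cth (0.23), Slc6a9 (0.24) and the sterol acyltransferase Soat2 (0.31). Genes with a fall of similar size come out nearest by this measure. The first 4 of these 5 were named above from the same values, so their place here is no separate evidence. Nearest to Trib3 were Aldh1l2 (0.32), Slc6a9 (0.38), Pck2 (0.43), Chac1 (0.45) and Glrp1 (0.49). Nearest to Atf4 were Vegfa (0.08), which encodes an angiogenic growth factor, Cars (0.08), the tRNA gene n-TRacg6 (0.08), AA414768 (0.08) and the sorting nexin Snx20 (0.09). AA414768 was not called (adjusted p = 0.432), with 0.991 CPM in RGX-104 and 1.72 CPM in DMSO libraries. These distances describe the 8 libraries and were not tested.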

How the data were processed

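RNA of 8 sorted samples was made into 3′ end libraries (Lexogen 3′ FWD), per the labels' protocols, so reads mark transcript ends and CPM are not divided by gene length. The authors deposited raw whole-number counts per gene. Per the submitters' processing notes, STAR 2.7.8a, R 4.1.0, DESeq2 1.4 and GRCm38 were used in some role. The counter, its strand setting and whether molecular identifiers were read are not stated there or in the labels. Columns were matched to samples by title, and 0 columns belonged to another series. Precision from counts covers counting error only.

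Counts were tested in edgeR 4.0.16 (R 4.3.3): filterByExpr, TMM, estimateDisp and the quasi-likelihood test (two-sided) with treatment as the only term, Benjamini-Hochberg adjusted over 12162 genes, threshold 0.05. Standard errors are the log2 fold change over the square root of F, and intervals (95%) use the test's degrees of freedom. The steps were tested on simulated data. Between libraries of a group, chi-square per degree of freedom was 6.60 to 10.1, so none was counted as a repeat. DESeq2 1.42.0 and limma 3.58.1 (voom), other scalings, no filter, robust dispersion, removal of the 2339 repeated symbols and leaving out each library were alternatives. No factor has a repeated symbol. In GENCODE M21, 0 other genes share a 50-base run with the last 500 bases of a factor's coding transcripts. Only runs read in the same direction were searched. Overlaps on opposite strands, such as those of Ddit3, Atf5 and Cebpb, were not covered by this search.

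The factors, the 12 other gene lists and the tests were chosen with earlier results of these data known. Named genes are the 10 factors, the 3 genes of lowest p in every list, the 5 nearest to Atf4, Ddit3 and Trib3 (mean of at least 20 counts), Abca1 and Abcg1, which makes 52 with repeats removed, and 4 picked after their values were seen (Gpt2, Sesn2, Sel1l and Mars1). Kif11 was also named after its zeros were seen, and overlapping neighbours were named from the annotation. The planned protein comparison was not run, as no protein table was used here.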

Additional observations from a re-analysis of the deposited data

Results flagged for a closer look

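In 8 of 112 groups of 4 libraries checked, for the named genes in each treatment, a single library stood far from the other 3, and chance gives about 1 in 20 groups. None of the 10 factors was among them. The RGX-104 library of replicate 7 was lowest for Nfil3 at 22.5 CPM (the others 28.5 to 28.7) and for Eif2s1 at 270 CPM (the others 296 to 299). The DMSO library of replicate 1 was highest for Cth at 18.4 CPM (17.1 to 17.3), lowest for Herpud1 at 97.2 CPM (111 to 114) and lowest for Trib2 at 42.9 CPM (46.0 to 46.4). The DMSO library of replicate 3 was highest for Chac1 at 31.4 CPM (21.7 to 23.2) and for Abcg1 at 13.1 CPM (8.54 to 9.18), and that of replicate 4 for Trib1 at 18.6 CPM (13.4 to 13.8).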

How the results depend on the processing

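Of 150 values of the 10 factors (15 alternatives each), 147 kept their direction and side of the threshold and 0 reversed. The other 3 were Cebpg without DMSO replicate 3, RGX-104 replicate 7 or RGX-104 replicate 8, which left 5 factors lower in place of 6; its log2 fold change ran from -0.44 to -0.30 over the libraries left out. Over all alternatives the adjusted p reached at most 7.35e-06 for Atf4, 6.02e-09 for Ddit3, 1.15e-09 for Trib3, 0.00433 for Atf3 and 0.0110 for Atf5. Of 690 values of the other named genes, 29 lost their call, 3 gained one and 0 reversed. DESeq2 called 184 genes higher over the whole table, against 108 by edgeR, and leaving out a library gave 57 to 93 higher. The genes lower in the 4 target lists numbered 31 to 35 under all 15 alternatives. The cause of these changes was not tested. Under each scaling the median log2 fold change of all genes stayed within 0.01 of 0. With the relaxed element, 3 factors held a match in place of 2. No paired analysis was possible because the groups share no replicate numbers. Depth limits Nupr1, with 89 reads in the RGX-104 and 174 in the DMSO libraries.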
